A study of Mus musculus with 9 samples.

Results

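The genes described here encode families of receptors on the surface of myeloid and other cells: the C-type lectins of the Clec series, the CD300 receptors, the signal regulatory proteins (SIRP), the leukocyte immunoglobulin-like and paired immunoglobulin-like receptors (LILR and PIR), the sialic acid-binding Siglecs and the TREM receptors. They were taken from the table of the series by symbol, and 67 of its 54838 genes matched: 33 Clec, 12 Cd300, 6 Siglec, 6 Trem, 4 Sirp, 4 Lilr and 2 Pir genes. Of these, 46 reached a level of 0.5 RPKM (reads per kilobase of exon, scaled by the reads of the library) in at least 3 of the 9 libraries and were tested, and 21 did not. RNA sequencing was run on whole ovaries of adult mice 40 h after PMSG, pregnant mare serum gonadotropin, a hormone that drives follicle growth. The 3 genotypes had 3 libraries each. The DKO_TG libraries are labelled DKO LXR TG-AMH-LXRb, a double knockout of the liver X receptors (LXR) with a transgene named for AMH and LXRb. The DKO libraries are labelled DKO LXR, the double knockout alone, and the WT libraries are labelled WT. All 3 groups received PMSG, and no untreated ovary was analysed here. The transgene's name points to Amh, a gene of the granulosa cells that surround the oocyte, but the labels do not state its promoter or the cells in which it is active. Whether each library is a separate animal is not stated, and a p-value here measures only the spread between these libraries, which may be technical.

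Many of these receptors come in families that hold both inhibitory and activating members. Inhibitory members, such as Pirb, Sirpa, Siglece and Clec12a, carry a tyrosine-based inhibitory motif in the cytoplasm that recruits the phosphatases SHP-1 (Ptpn6) and SHP-2 (Ptpn11), while activating members lack it and signal through the adaptors DAP12 (Tyrobp) or the Fc receptor gamma chain (Fcer1g) to the kinase Syk. In the ovary, receptors of this kind are found mainly on resident macrophages and on monocytes and other leukocytes that enter from the blood, while some members, such as Clec14a and Cd300lg, belong to the endothelium. LXRs are nuclear receptors that sense oxysterols and, in macrophages, switch on the export of cholesterol and restrain inflammatory genes.

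The targeted genes were low in both knockout groups. Nr1h3, which encodes LXRa, had 0.538, 0.824 and 0.647 RPKM in DKO_TG, 0.5904, 1.11 and 0.717 RPKM in DKO and 5.47, 4.12 and 4.45 RPKM in WT. Nr1h2, which encodes LXRb, had 5.14, 5.96 and 5.896 RPKM in DKO_TG, 7.79, 6.02 and 5.79 RPKM in DKO and 22.5, 18.7 and 15.2 RPKM in WT, so the level of this gene was not higher in the libraries labelled as carrying the transgene. The libraries held between 40.1 and 59.4 M recovered reads. Within DKO, replicate 2 stood apart in Xist, the RNA of the inactive X chromosome. It had 0.111 RPKM, against 51.97 and 50.5 RPKM in the other DKO libraries. Of the X-linked gene Kdm6a it had 3.89 RPKM, against 8.09 and 8.43 RPKM. In DKO_TG, Xist had 45.7, 45.2 and 39.7 RPKM and Kdm6a 8.02, 8.30 and 7.52 RPKM. In WT, Xist had 0.483, 1.46 and 1.62 RPKM and Kdm6a 3.22, 3.68 and 3.81 RPKM. Another X-linked gene, Eif2s3x, was not low in WT. It had 64.0, 64.6 and 64.1 RPKM in DKO_TG, 53.6, 36.4 and 57.4 RPKM in DKO and 62.4, 60.3 and 60.8 RPKM in WT. The Y-linked genes Ddx3y, Kdm5d and Uty reached at most 0.0301, 0.0150 and 0.00846 RPKM in any library, and Eif2s3y was listed at 0. The WT libraries stood apart as well, with a summed level of 5 nuclear RNAs (Malat1, Neat1, Xist, Kcnq1ot1, Meg3) of 351 to 387 RPKM in DKO_TG and 269 to 337 RPKM in DKO, against 2.42 to 13.6 RPKM in WT. A difference of genotype from WT and a difference in how the WT RNA was handled cannot be told apart in this design. In whole tissue, fewer cells of a type and less RNA per cell cannot be told apart either.

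Summed over the 67 genes, the receptors reached 114, 119 and 119 RPKM in DKO_TG, 164, 387 and 250.4 RPKM in DKO and 85.6, 95.2 and 106 RPKM in WT. The DKO libraries were thus the highest and also the most uneven, and DKO replicate 2 led. The summed Sirp genes had 9.64, 10.4 and 10.5 RPKM in DKO_TG, 18.99, 61.1 and 38.5 RPKM in DKO and 7.13, 10.1 and 9.81 RPKM in WT. The summed Lilr genes had 5.26, 6.85 and 6.17 RPKM in DKO_TG, 8.43, 18.9 and 15.98 RPKM in DKO and 1.11, 0.838 and 1.05 RPKM in WT. Both families did not overlap between DKO and WT, but the DKO_TG level lay close to WT for the Sirp genes and between DKO and WT for the Lilr genes. The summed Trem genes had 1.13, 1.72 and 1.88 RPKM in DKO_TG, 1.94, 4.66 and 3.52 RPKM in DKO and 1.17, 1.73 and 1.93 RPKM in WT, so that DKO replicate 1 and WT replicate 3 were nearly equal. The summed Cd300 genes had 22.2, 27.2 and 24.1 RPKM in DKO_TG, 27.8, 94.9 and 42.8 RPKM in DKO and 25.6, 24.2 and 28.1 RPKM in WT, and here DKO replicate 1 lay below WT replicate 3. In DKO replicate 2, Cd300ld3, Cd300ld4 and Cd300ld5 gave 16.9, 15.5 and 16.8 RPKM of this sum. These genes share most of their sequence and are not separate measurements. The Cd300 sum and the sum over the 67 genes may therefore hold the same signal more than once.

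**Figure D1:**
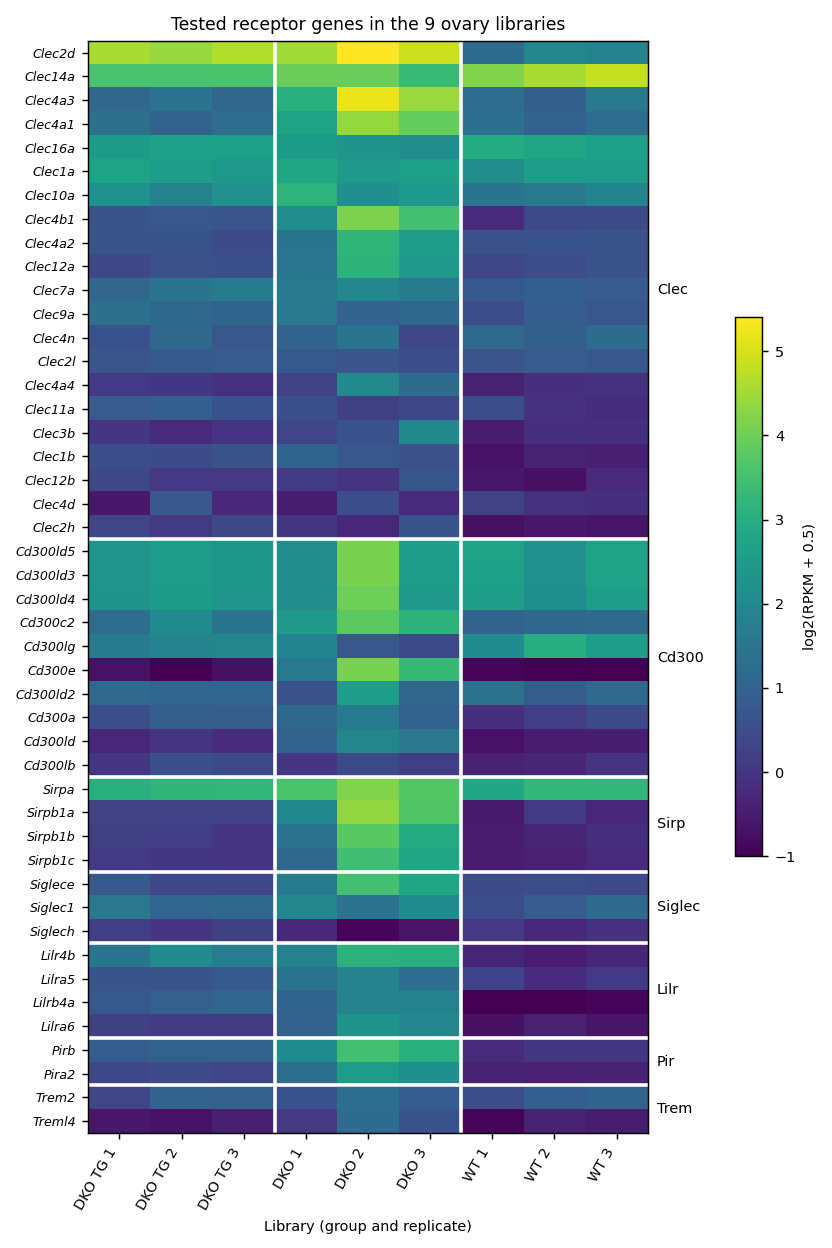
Level of the 46 tested receptor genes as log2(RPKM + 0.5) in each of the 9 libraries, with columns for DKO_TG, DKO and WT replicates 1 to 3 and rows grouped by family and ordered by mean level. The Clec4a, Sirpb1 and Pir rows are brightest in the DKO columns, with DKO replicate 2 the highest, while Clec2d is bright in DKO_TG and DKO and dark in WT.

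In DKO against WT, 31 of the 46 tested receptors rose and 4 fell at an adjusted p under 0.05 (limma on log2(RPKM + 0.5), Benjamini-Hochberg over 18889 genes), against a background of 30.8% of all tested genes called higher and 25.9% called lower. The median log2 change of the tested receptors was 1.16, against 0.016 over all tested genes. The libraries of DKO and WT did not overlap for 32 receptors in the upward and 3 in the downward direction, where 32.6% and 28.6% of all tested genes had no overlap. Without DKO replicate 2, 31 receptors rose and 3 fell, where 5988 and 5216 of 18889 genes did. Among the 46, 15 reached 0.5 RPKM in no WT library, so they entered the test through the knockout groups, and 6 of them (Cd300e, Cd300ld, Clec3b, Clec4a4, Sirpb1c and Treml4) entered through the DKO libraries. Without the filter, 39 of 66 receptors with a read were called higher and 4 lower, where 20.2% and 11.6% of 38309 genes were called, and the median log2 change of these receptors was 0.56, against 0.028 over all genes.

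The 5 lectins of the Clec4a cluster all rose in DKO against WT. The cluster lies on the plus strand of chromosome 6 in mm10, where Clec4a1, Clec4a3, Clec4a4, Clec4b1 and Clec4a2 follow each other between positions 122921848 and 123143999. Clec4a3 (DCIR3), a lectin of dendritic cells and monocytes, had 1.65, 2.22 and 1.68 RPKM in DKO_TG, 7.69, 36.7 and 21.3 RPKM in DKO and 1.96, 1.42 and 2.43 RPKM in WT. Each DKO library was higher than all others, and the DKO_TG and WT libraries overlapped. Its log2 change was 2.97 ± 0.46 (SE) in DKO against WT (adjusted p = 0.000816 in limma) and -3.01 ± 0.46 (SE) in DKO_TG against DKO (adjusted p = 0.0185 in limma). Clec4b1 (DCAR), an activating member that pairs with the Fc receptor gamma chain, had 1.05, 1.17 and 1.101 RPKM in DKO_TG, 3.91, 16.99 and 10.7 RPKM in DKO and 0.362, 0.827 and 0.898 RPKM in WT. The DKO libraries were again the highest 3. The change on the log2 scale was 3.03 ± 0.43 (SE) in DKO against WT and -2.57 ± 0.43 (SE) in DKO_TG against DKO (adjusted p = 0.000518 and 0.0245 in limma). Clec4a1 (DCIR4) had 2.09, 1.55 and 1.95 RPKM in DKO_TG, 6.03, 20.6 and 14.4 RPKM in DKO and 2.03, 1.51 and 1.94 RPKM in WT, and its DKO_TG and WT libraries overlapped. Clec4a2 (DCIR1), which carries an inhibitory motif, rose by 1.81 ± 0.35 on the log2 scale (SE, adjusted p = 0.00244 in limma). Clec4a4 (DCIR2), also inhibitory, rose by 1.36 ± 0.37 (SE, adjusted p = 0.0121 in limma) and shares 15.7% of its exon 50-mers (sequences of 50 bases) with Clec4a2. Clec4a2 and Clec4a4 were chosen after their values were seen, as neighbours in the cluster.

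The neighbouring lectins for microbial ligands were not called. Clec4n (Dectin-2) and Clec4d (MCL), which lie next to it on chromosome 6 from position 123229843 to 123275265, recognise fungal and mycobacterial glycolipids and mannans. Clec4n had 1.02, 1.75 and 1.17 RPKM in DKO_TG, 1.57, 2.27 and 0.818 RPKM in DKO and 1.83, 1.43 and 1.87 RPKM in WT. Clec4d had 0.179, 1.18 and 0.314 RPKM in DKO_TG, 0.2199, 0.927 and 0.354 RPKM in DKO and 0.696, 0.433 and 0.414 RPKM in WT. All 3 groups overlapped for both genes, and neither was called (adjusted p = 0.603 for Clec4n and 0.873 for Clec4d in DKO against WT, limma). The 95% interval of the log2 change reached from -0.75 to 0.42 for Clec4n and from -0.89 to 0.74 for Clec4d. Clec7a (Dectin-1), the receptor for fungal beta-glucan, rose, with 1.65, 2.27 and 2.58 RPKM in DKO_TG, 2.48, 3.42 and 2.59 RPKM in DKO and 1.19, 1.38 and 1.303 RPKM in WT (log2 change 0.88 ± 0.15 (SE), adjusted p = 0.00155 in limma for DKO against WT). It was chosen after its values were seen, to set the Dectins side by side.

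All 4 SIRP genes were tested and rose in DKO against WT. Sirpa, on chromosome 2, is the inhibitory receptor for CD47, the surface protein that marks cells as self, and it had 7.72, 8.56 and 8.81 RPKM in DKO_TG, 11.6, 17.6 and 12.7 RPKM in DKO and 6.53, 8.94 and 8.704 RPKM in WT. The DKO libraries were the highest 3, and DKO_TG overlapped WT. Its log2 change came to 0.75 ± 0.17 (SE) in DKO against WT (adjusted p = 0.00543 in limma). Sirpb1a, an activating member that signals through DAP12, had 0.707, 0.705 and 0.675 RPKM in DKO_TG, 3.45, 20.1 and 12.3 RPKM in DKO and 0.191, 0.566 and 0.325 RPKM in WT. Its DKO libraries lay far above the rest, and its DKO_TG libraries, though low, did not overlap WT. The log2 change was 3.58 ± 0.50 (SE) in DKO against WT and -3.08 ± 0.50 (SE) in DKO_TG against DKO (adjusted p = 0.000477 and 0.0218 in limma). Sirpb1b had 0.655, 0.6199 and 0.516 RPKM in DKO_TG, 2.2004, 12.97 and 7.26 RPKM in DKO and 0.197, 0.295 and 0.424 RPKM in WT, the same order as Sirpb1a. Sirpb1a, Sirpb1b and Sirpb1c lie within positions 15371653 to 15848528 of chromosome 3 and share 40.4%, 58.0% and 51.9% of their 50-mers with other genes, mostly each other, so the split of reads among the 3 is uncertain. Cd47 itself, chosen after its values were seen, was not called, with 24.2, 23.3 and 22.9 RPKM in DKO_TG, 21.2, 31.5 and 25.2 RPKM in DKO and 22.6, 20.8 and 21.4 RPKM in WT (adjusted p = 0.143 in limma for DKO against WT).

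The CD300 genes split into those that rose strongly, a block that did not, and an endothelial member that fell. Cd300e, an activating receptor that is a monocyte marker in human, had 0.118, 0 and 0.106 RPKM in DKO_TG, 2.498, 16.9 and 9.35 RPKM in DKO and 0.0314, 0.0107 and 0 RPKM in WT. The gene was close to absence outside DKO, with 12, 0 and 11 reads in DKO_TG, 267, 2165 and 1277 reads in DKO and 3, 1 and 0 reads in WT. It was the receptor with the largest log2 change in DKO against WT, 3.96 ± 0.52 (SE, adjusted p = 0.000326 in limma), and in DKO_TG against DKO, -3.81 ± 0.52 (SE, adjusted p = 0.0143 in limma). Because the low side is near 0, the size depends on the pseudocount of 0.5, and over the alternatives it ranged from 3.09 to 9.07 in DKO against WT. Cd300ld had 0.341, 0.474 and 0.3795 RPKM in DKO_TG, 1.54, 3.32 and 2.42 RPKM in DKO and 0.124, 0.203 and 0.227 RPKM in WT, with no overlap between any groups. On the log2 scale it changed by 2.05 ± 0.21 (SE) in DKO against WT and -1.66 ± 0.21 (SE) in DKO_TG against DKO (adjusted p = 8.39e-05 and 0.0122 in limma).

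Between these genes on the minus strand of chromosome 11 lie Cd300ld2 to Cd300ld5, which were not called in the 3 comparisons. Cd300ld5 had 4.57, 5.29 and 4.71 RPKM in DKO_TG, 4.01, 16.8 and 5.54 RPKM in DKO and 5.92, 4.25 and 5.93 RPKM in WT. DKO replicate 2 was the highest library by far, and the other DKO libraries overlapped WT. Cd300ld3 and Cd300ld4 showed the same, with 16.9 and 15.5 RPKM in DKO replicate 2 and at most 5.98 and 5.52 RPKM in the other 8 libraries. These genes share 82.1% (Cd300ld3) and 93.8% (Cd300ld4) of their 50-mers, and Cd300ld5 every one, with each other, so their near-equal values are not separate measurements. After rescaling to TPM (transcript levels with the same total in every library), the 3 were called higher in DKO against WT (adjusted p = 0.047, 0.040 and 0.044 in limma for Cd300ld3, Cd300ld4 and Cd300ld5), a scaling that raised the median log2 change of all genes to 0.48. Cd300lg, a mucin-like CD300 of the endothelium, fell, with 2.66, 3.15 and 3.34 RPKM in DKO_TG, 3.21, 1.16 and 0.849 RPKM in DKO and 3.84, 7.38 and 5.43 RPKM in WT. All DKO libraries were below all WT libraries, and DKO replicate 1 lay within the DKO_TG range. The fitted log2 change was -1.54 ± 0.36 (SE, adjusted p = 0.00617 in limma).

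The LILR and PIR genes, all 6 of them tested, rose in DKO against WT. Pirb, the inhibitory receptor for class I major histocompatibility complex (MHC) proteins on mouse myeloid and B cells, had 1.32, 1.49 and 1.4997 RPKM in DKO_TG, 3.802, 10.5 and 7.55 RPKM in DKO and 0.386, 0.51999 and 0.523 RPKM in WT. Its activating partner Pira2, which pairs with the Fc receptor gamma chain, had 0.787, 0.891 and 0.765 RPKM in DKO_TG, 1.99, 5.23 and 4.08 RPKM in DKO and 0.265, 0.245 and 0.263 RPKM in WT. For both genes the groups formed 3 levels without overlap, DKO above DKO_TG above WT. The log2 change of Pirb was 2.90 ± 0.28 (SE) in DKO against WT, -1.90 ± 0.28 (SE) in DKO_TG against DKO and 0.99 ± 0.28 (SE) in DKO_TG against WT (adjusted p = 6.98e-05, 0.0176 and 0.0178 in limma). Pira2 was called in the same directions, with adjusted p = 0.000114, 0.0209 and 0.0301 in limma, but shares 93.0% of its 50-mers with other genes, and Pirb shares 34.0%. Lilra5 (an activating member) had 1.09, 1.09 and 1.27 RPKM in DKO_TG, 2.25, 3.13 and 1.97 RPKM in DKO and 0.714, 0.371 and 0.559 RPKM in WT. It shares no 50-mer with another gene and formed the same 3 levels. Lilra6, also activating, had 0.665, 0.593 and 0.566 RPKM in DKO_TG, 1.55, 4.46 and 3.43 RPKM in DKO and 0.115, 0.249 and 0.149 RPKM in WT. It shares 31.3% of its 50-mers with other genes, Pirb and Pira2 among them, so it is not a separate measurement.

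Lilr4b and Lilrb4a, which encode gp49A and the inhibitory gp49B and lie side by side on chromosome 10, rose in DKO and were above WT in DKO_TG as well. Lilr4b had 2.32, 3.73 and 2.72 RPKM in DKO_TG, 3.04, 8.18 and 7.54 RPKM in DKO and 0.285, 0.2096 and 0.312 RPKM in WT. Lilrb4a had 1.18, 1.44 and 1.62 RPKM in DKO_TG, 1.59, 3.09 and 3.04 RPKM in DKO and 0, 0.00855 and 0.0317 RPKM in WT. For both, every knockout library of either kind was above every WT library. The log2 changes in DKO against WT were 3.03 ± 0.31 (SE) for Lilr4b and 2.54 ± 0.20 (SE) for Lilrb4a (adjusted p = 9.38e-05 and 2.36e-05 in limma). In DKO_TG against WT they were 2.14 ± 0.31 (SE) and 1.89 ± 0.20 (SE), with adjusted p = 0.000677 and 0.000131 in limma. Their values are uncertain, because they share 24.5% (Lilr4b) and 47.2% (Lilrb4a) of their 50-mers, in part with Gm49339, a gene model whose exons overlap both.

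Among the Siglecs, Siglece, the inhibitory sialic acid receptor of mouse neutrophils, monocytes and macrophages, had 1.22, 0.808 and 0.793 RPKM in DKO_TG, 2.67, 10.7 and 6.37 RPKM in DKO and 0.885, 0.931 and 0.828 RPKM in WT. The DKO libraries were the highest 3, and the other groups overlapped. Its log2 change was 2.18 ± 0.38 (SE) in DKO against WT and -2.13 ± 0.38 (SE) in DKO_TG against DKO (adjusted p = 0.00148 and 0.0303 in limma). Siglec1 (sialoadhesin, CD169), a marker of resident macrophages in several tissues, rose less, with 2.39, 1.64 and 1.74 RPKM in DKO_TG, 3.397, 2.15 and 3.82 RPKM in DKO and 0.954, 1.299 and 1.77 RPKM in WT (log2 change 0.97 ± 0.22 (SE), adjusted p = 0.00624 in limma). Its highest DKO libraries were replicates 3 and 1, and not replicate 2. Siglech, a marker of plasmacytoid dendritic cells, was low in all libraries and fell in DKO, with 0.6301, 0.513 and 0.653 RPKM in DKO_TG, 0.335, 0.0433 and 0.127 RPKM in DKO and 0.548, 0.3304 and 0.459 RPKM in WT. The DKO and WT libraries overlapped by 1 library each, and the call (adjusted p = 0.0332 in limma) was not stable. It was lost in a fit of the 6 libraries alone, after rescaling to TPM, with the plain total of reads, and without WT replicate 1, WT replicate 3, DKO replicate 2 or DKO replicate 3 (adjusted p between 0.067 and 0.23 in limma).

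Clec2d was the receptor with the smallest adjusted p in DKO against WT. It encodes a ligand for the NKR-P1 receptors of natural killer cells and is expressed beyond the myeloid lineage. It had 23.5, 20.8 and 25.1 RPKM in DKO_TG, 22.3, 41.8 and 29.1 RPKM in DKO and 1.87, 3.37 and 3.14 RPKM in WT, so all 6 knockout libraries lay above all WT libraries and the knockout groups overlapped. The log2 change was 3.25 ± 0.24 (SE) in DKO against WT and 2.87 ± 0.24 (SE) in DKO_TG against WT (adjusted p = 1.6e-05 and 3.41e-05 in limma). Clec1b (CLEC-2), the podoplanin receptor of platelets and some myeloid cells, was likewise above WT in all 6 knockout libraries, with 0.944, 0.912 and 1.05 RPKM in DKO_TG, 1.6005, 1.17 and 0.998 RPKM in DKO and 0.124, 0.258 and 0.239 RPKM in WT. The change on the log2 scale was 1.30 ± 0.15 (SE) in DKO against WT and 1.06 ± 0.15 (SE) in DKO_TG against WT (adjusted p = 0.000158 and 0.000529 in limma). Exons of Clec1b overlap exons of Clec9a by 184 bases on the same strand, so part of the reads of each can come from the other. Both groups differ from WT in the nuclear RNAs named above as well, and the part of that difference in these receptors was not tested.

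Of the other members, Clec14a and Clec16a fell in DKO. Clec14a, an endothelial lectin that binds multimerin-2, had 11.4, 11.4 and 11.5 RPKM in DKO_TG, 15.1, 14.9 and 9.67 RPKM in DKO and 17.9, 23.8 and 28.1 RPKM in WT, and all knockout libraries were below all WT libraries. Its log2 change came to -0.79 ± 0.20 (SE) in DKO against WT and -0.97 ± 0.20 (SE) in DKO_TG against WT (adjusted p = 0.00844 and 0.00357 in limma), though the call in DKO against WT was lost after rescaling to TPM (log2 change -0.26, adjusted p = 0.39 in limma) and with the plain total of reads (log2 change -0.49, adjusted p = 0.086 in limma). The ligand gene Mmrn2 had 9.79, 7.99 and 9.42 RPKM in DKO_TG, 10.5, 9.66 and 6.39 RPKM in DKO and 15.5, 15.9 and 14.4 RPKM in WT, in the same direction. Among 8 endothelial markers tested, 6 fell in DKO against WT (background 25.9% lower). After rescaling to TPM, 1 fell, where 1065 of 18889 genes were called lower. With the plain total of reads 2 fell, where 2314 of 18889 genes were. The summed level of the list was 59.9 to 95.4 RPKM in DKO and 108 to 119 RPKM in WT. Clec16a, which despite its name acts in mitophagy and is expressed widely, had 5.14, 5.84 and 5.65 RPKM in DKO_TG, 5.16, 4.46 and 3.92 RPKM in DKO and 7.36, 6.29 and 5.59 RPKM in WT. Its log2 change of -0.46 ± 0.12 (SE, adjusted p = 0.0122 in limma) turned to 0.043 after rescaling to TPM (adjusted p = 0.82 in limma). Trem2, the lipid-binding DAP12 receptor of tissue macrophages, was not called, with 0.771, 1.53 and 1.47 RPKM in DKO_TG, 1.02, 1.99 and 1.33 RPKM in DKO and 0.918, 1.39 and 1.603 RPKM in WT. All 3 groups overlapped, and the 95% interval of its log2 change in DKO against WT reached from -0.46 to 0.66. Treml4 rose, with 0.174, 0.121 and 0.241 RPKM in DKO_TG, 0.538, 1.88 and 1.07 RPKM in DKO and 0.0437, 0.269 and 0.218 RPKM in WT (log2 change 1.23 ± 0.28 (SE), adjusted p = 0.00552 in limma). Clec2l, a lectin-like gene known from the brain, was not called, at 1.11, 1.27 and 1.29 RPKM in DKO_TG, 1.19, 1.12 and 0.953 RPKM in DKO and 1.12, 1.299 and 1.17 RPKM in WT.

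**Figure D2:**
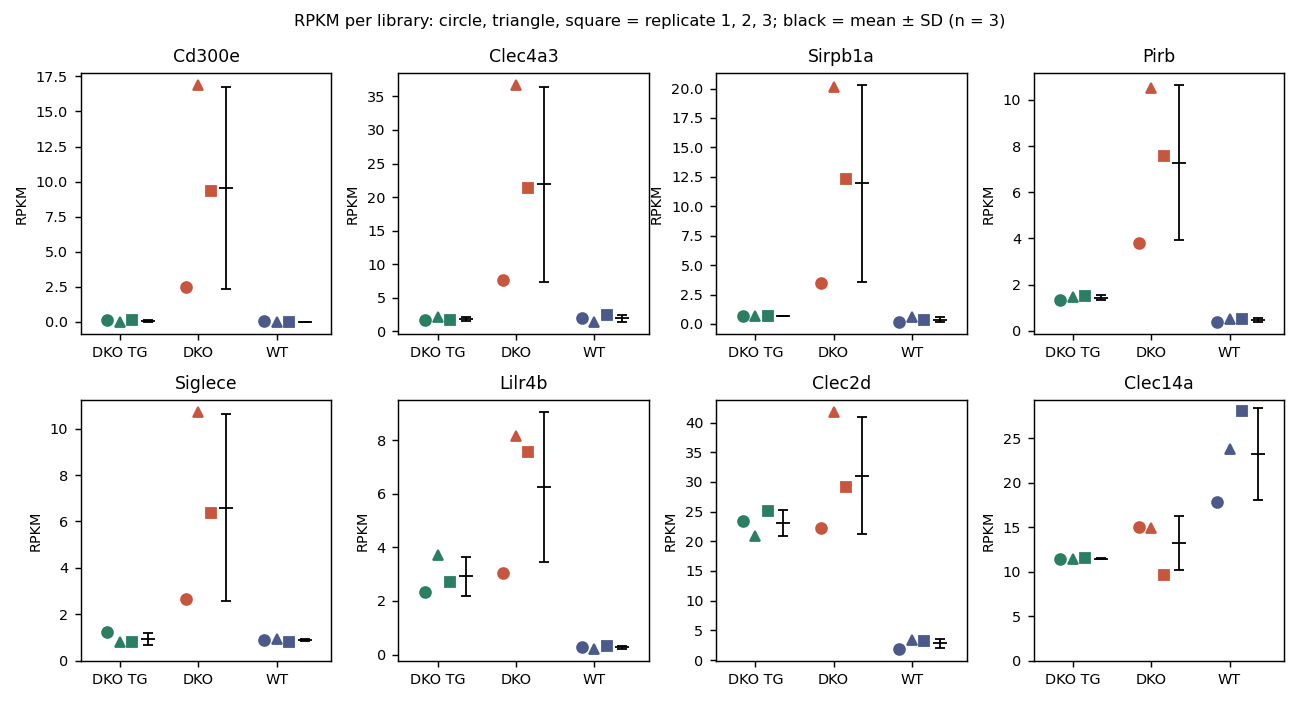
RPKM of 8 receptors in each library, with DKO_TG, DKO and WT along the axis, a circle, triangle and square for replicates 1, 2 and 3, and the mean ± SD of 3 libraries in black. Cd300e, Clec4a3, Sirpb1a, Pirb and Siglece are highest in DKO, Lilr4b and Clec2d are above WT in both knockout groups, and Clec14a is below WT in both.

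At the lower end, 20 of the 67 receptors reached 0.5 RPKM in no library, and Clec4f, the Kupffer cell lectin of the liver, was listed at 0 in every library. Of the receptors that missed the filter, Cd300lf, Clec4e and Trem3 had the highest levels in a single library. Cd300lf, an inhibitory receptor that mouse norovirus uses for entry, had 0.191, 0.164 and 0.121 RPKM in DKO_TG, 0.4098, 1.96 and 1.99 RPKM in DKO and 0.0382, 0.0174 and 0.0482 RPKM in WT, and missed the filter because it passed 0.5 RPKM in 2 libraries. Clec4e (Mincle) reached at most 0.495 RPKM, in DKO replicate 2, and Trem3 at most 0.461 RPKM, in DKO replicate 3. Just inside were Siglech, Clec12b and Treml4, which in the third highest of their libraries had 0.548, 0.591 and 0.538 RPKM. Clec12b, an inhibitory lectin, had 0.8103, 0.536 and 0.546 RPKM in DKO_TG, 0.591, 0.483 and 1.13 RPKM in DKO and 0.162, 0.1105 and 0.358 RPKM in WT.

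In DKO_TG against DKO, 16 of the 46 tested receptors fell and none rose at an adjusted p under 0.05 in limma, against a background of 1.73% of all tested genes called lower and 0.498% called higher. By an unadjusted p under 0.05, 25 receptors differed. The median log2 change of the tested receptors was -0.55, against 0.030 over all tested genes. The 16 were Clec4a1, Clec4a2, Clec4a3, Clec4b1, Clec12a, Cd300c2, Cd300e, Cd300ld, Sirpb1a, Sirpb1b, Sirpb1c, Siglece, Lilra5, Lilra6, Pira2 and Pirb. All of them had risen in DKO against WT, and both comparisons share the DKO libraries. Among the 16, Cd300e, Cd300ld and Sirpb1c had passed the filter only through the DKO libraries, the higher group here, so their calls are not independent of the filter. Libraries did not overlap for 21 receptors in the downward and 2 in the upward direction, where 12.1% of all tested genes had no overlap in each. The fall mixes inhibitory members (Pirb, Siglece, Clec12a, Clec4a2) with activating ones (Pira2, Clec4b1, Sirpb1a, Cd300e). Clec12a, the inhibitory receptor for uric acid crystals, had 0.797, 1.01 and 0.977 RPKM in DKO_TG, 2.35, 8.27 and 5.01 RPKM in DKO and 0.806, 0.9301 and 1.05 RPKM in WT, and Cd300c2 had 1.99, 3.705 and 2.31 RPKM in DKO_TG, 4.93, 13.3 and 8.26 RPKM in DKO and 1.54, 1.72 and 1.802 RPKM in WT (both chosen after their values were seen). For each, the 3 DKO libraries were above the 6 others.

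These 16 calls rest on small groups. Without the filter, 5 fell and none rose, where 0.423% of 38309 genes were called lower and 0.178% higher. A fit of the 6 DKO_TG and DKO libraries alone called 0 receptors. There the lowest adjusted p of a receptor was 0.054 in limma, and 44 of all tested genes were called lower. With limma-voom on recovered reads, 6 receptors were called lower, where 241 of 18347 genes were. Without DKO replicate 2, 12 receptors fell, all among the 16, where 210 of all tested genes were called lower. Without DKO replicate 3, 2 fell, where 121 of all tested genes were called lower. Leaving out any 1 DKO_TG library left 0 calls among the receptors and between 23 and 30 lower calls among all genes. Without the 12 tested receptors that share over 20% of their 50-mers with other genes, 10 fell in DKO_TG against DKO, and 23 rose and 4 fell in DKO against WT.

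Within DKO, many receptors shared an order of the libraries. Replicate 2 was the highest and replicate 1 the lowest for 29 of the 46 tested receptors and for 15 of the 16 that fell in DKO_TG against DKO, where 21.6% of all tested genes had this order. The remaining tested receptors were spread over 5 other orders. The 5 erythrocyte markers, hemoglobin genes and Alas2, summed to 198 to 285 RPKM in DKO_TG and to 562, 2409 and 1672 RPKM in DKO replicates 1, 2 and 3, which is the same order. In WT they summed to 361 to 1657 RPKM, where the receptors were low. The part of blood content in the receptor levels was not tested. Neutrophil markers summed to 2.85 to 3.31 RPKM in DKO_TG, 8.47, 22.8 and 96.8 RPKM in DKO, with replicate 3 the highest, and 1.65 to 2.04 RPKM in WT. Most of this sum came from S100a9 and S100a8, with 53.1 and 24.9 RPKM in DKO replicate 3. Ly6g, a surface marker of neutrophils, was listed at 0 in all DKO_TG and WT libraries and had 0.0207, 0.0518 and 0.276 RPKM in DKO, and Mpo, a granule enzyme made by neutrophil precursors, reached at most 0.129 RPKM in any library.

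**Figure D3:**
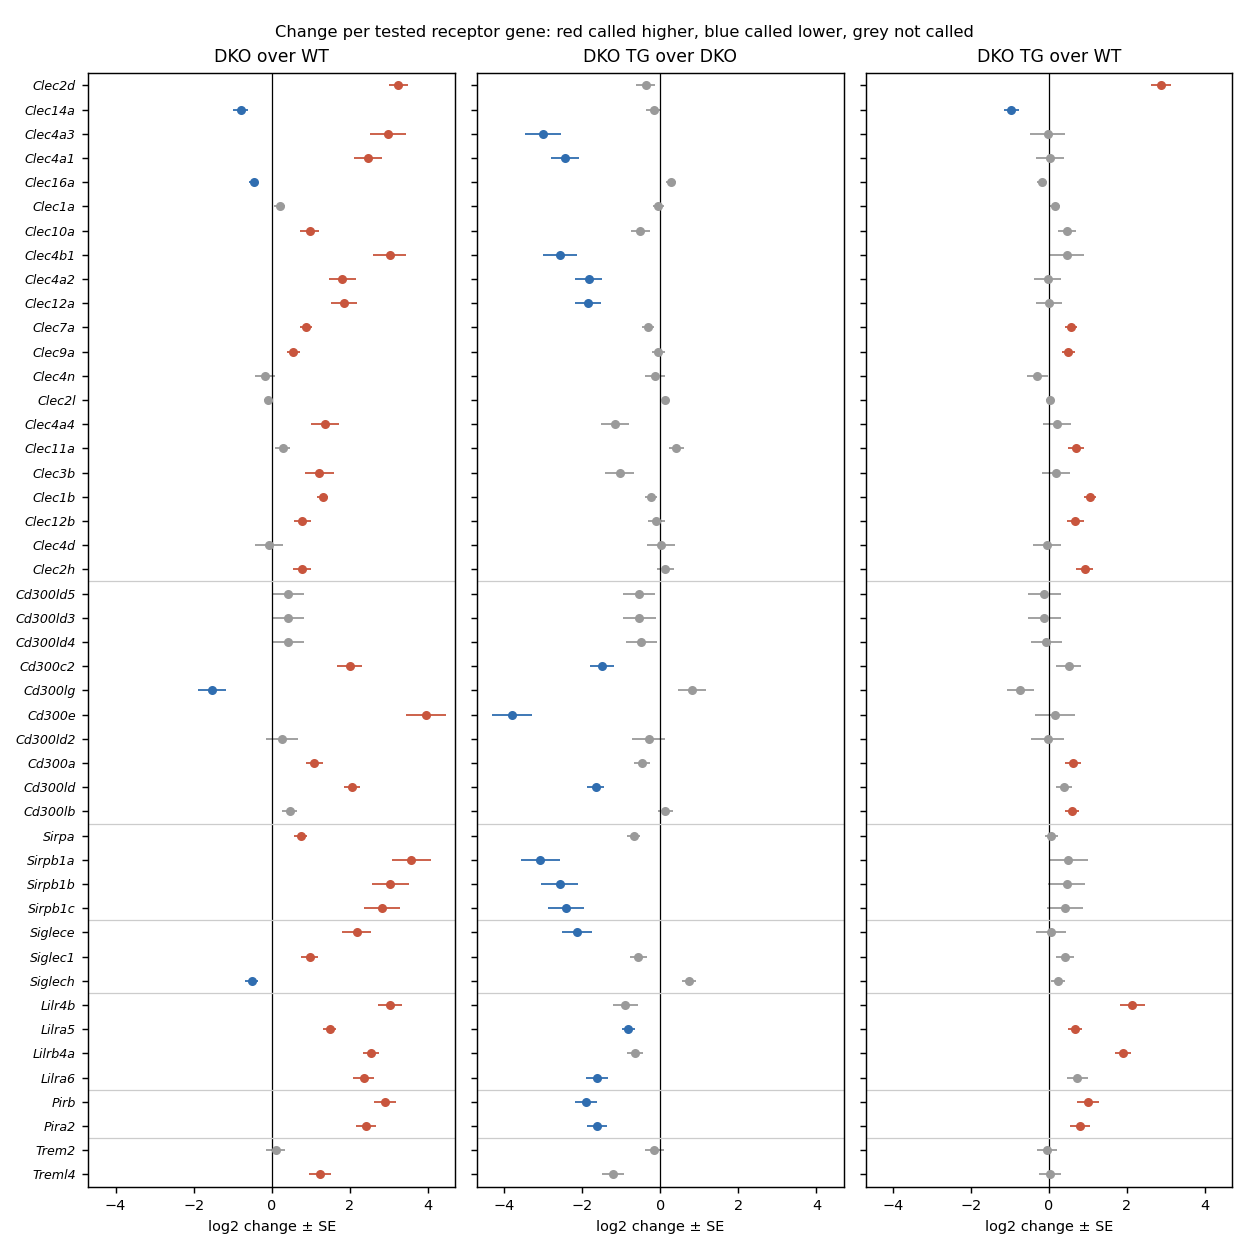
Log2 change with its SE of the 46 tested receptors in DKO over WT, DKO_TG over DKO and DKO_TG over WT, with receptors called higher in red, lower in blue and not called in grey. The 16 blue receptors of the middle panel are all red in the left panel, and most of these are grey in the right panel.

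The promoters of the 16 receptors that fell in DKO_TG were set beside the others. Promoter sequences of RefSeq on GRCm38.p6, from 250 bases before to 50 after the start of a gene, matched 51 of the 67 receptors (55 promoters). The motifs AGGAAGT and GAGGAAC contain GGAA, the core bound by ETS factors such as PU.1 of myeloid cells, and were searched on both strands. They were chosen after the promoters had been seen, so their counts are a description. One or the other occurred in the promoters of 14 of the 16 receptors that fell, and of 5 of the 20 other tested receptors with a promoter. Among 32851 promoters of all genes, 13.9% held one or the other, 9.35% held AGGAAGT and 5.14% held GAGGAAC. The 16 are not separate cases: the promoters of Pira2 and Pirb had 97.1% of 272 aligned bases in common, those of Lilra6 and Pira2 96.3% of 298, and those of Sirpb1a and Sirpb1b 95.7% of 207. The DR4 element, the direct repeat to which LXR binds, searched as its consensus, occurred in none of the receptor promoters, and in 0.0152% of all promoters. With so rare a sequence, none would be expected among 55 promoters, so this search could not show whether LXR binds near these genes. To show the motifs in their setting, the 140 bases before the start of 4 of the 14 follow, each in a window without an annotated exon and written 5′ to 3′ on the strand of the gene, with both motifs and their reverse complements in capitals.

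Cd300c2, chr11:115001881-115002020, minus strand: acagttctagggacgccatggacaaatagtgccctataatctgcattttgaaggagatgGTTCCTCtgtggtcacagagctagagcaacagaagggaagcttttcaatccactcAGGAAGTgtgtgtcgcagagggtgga
Lilra5, chr7:4237614-4237753, plus strand: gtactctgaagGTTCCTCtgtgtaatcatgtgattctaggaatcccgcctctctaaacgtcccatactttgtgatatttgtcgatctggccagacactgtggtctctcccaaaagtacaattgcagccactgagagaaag
Pira2, chr7:3845052-3845191, minus strand: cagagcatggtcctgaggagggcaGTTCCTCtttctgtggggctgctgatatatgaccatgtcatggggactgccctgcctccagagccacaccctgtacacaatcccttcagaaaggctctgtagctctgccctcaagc
Siglece, chr7:43660162-43660301, minus strand: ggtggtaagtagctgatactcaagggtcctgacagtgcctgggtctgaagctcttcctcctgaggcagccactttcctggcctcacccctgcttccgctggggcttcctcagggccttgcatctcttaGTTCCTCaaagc

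In DKO_TG against WT, 14 of the 46 tested receptors were higher and 1 was lower at an adjusted p under 0.05 in limma, against a background of 29.1% of all tested genes called higher and 22.3% called lower. The share of receptors called higher was close to that background. The median log2 change was 0.31, against 0.031 over all tested genes. After quantile normalization, 4 receptors were called higher and 2 lower, where 3777 and 4504 of 18889 genes were. The median of the receptors then lay 0.11 below that of all genes. Without the filter, 14 of 66 receptors with a read were called higher and 1 lower, where 7182 and 3805 of 38309 genes were. Of those higher ones, 9 had been called higher with the filter as well. The libraries did not overlap for 21 receptors in the upward and 2 in the downward direction, where 35.6% and 30.2% of all tested genes had no overlap. The 14 called with the filter were Clec1b, Clec2d, Clec2h, Clec7a, Clec9a, Clec11a, Clec12b, Cd300a, Cd300lb, Lilr4b, Lilra5, Lilrb4a, Pira2 and Pirb. Among them, Clec2h and Clec12b passed the filter only through the DKO_TG libraries, the higher group of this comparison. Of the 16 receptors that fell in DKO_TG against DKO, Lilra5, Pira2 and Pirb were among these 14, and the other 13 were not called against WT; that a call was missed does not show that their levels were equal. For Clec4a3, the 95% interval of the log2 change in DKO_TG against WT reached from -1.08 to 1.00, and for Siglece from -0.81 to 0.90.

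The signalling partners of the receptors were taken as lists of adaptors and kinases, phosphatases and ligands. Of 15 adaptor and kinase genes, 11 rose in DKO against WT, and 8 fell in DKO_TG against DKO (backgrounds 30.8% higher and 1.73% lower); their median log2 changes were 1.16 and -0.86. A fit of the 6 DKO_TG and DKO libraries alone called 0 of them lower. Leaving out 1 library gave 0 or 1 lower calls, apart from DKO replicate 1. Card9, which carries the signal of Syk-coupled lectins to NF-kB, had 0.3397, 0.242 and 0.394 RPKM in DKO_TG, 1.099, 1.65 and 1.3001 RPKM in DKO and 0.0286, 0.175 and 0.144 RPKM in WT. On the log2 scale it changed by 1.58 ± 0.16 (SE) in DKO against WT and -1.16 ± 0.16 (SE) in DKO_TG against DKO (adjusted p = 7.65e-05 and 0.0143 in limma), and its groups formed 3 levels, as those of Pirb did. Malt1, its partner downstream, had 1.87, 1.78 and 1.897 RPKM in DKO_TG, 2.06, 1.38 and 2.21 RPKM in DKO and 0.612, 0.6096 and 0.665 RPKM in WT, so it was high in both knockout groups. Lat2, an adaptor of Syk signalling, also rose in both, by 1.31 ± 0.17 (SE) in DKO and 0.94 ± 0.17 (SE) in DKO_TG against WT on the log2 scale (adjusted p = 0.00031 and 0.00191 in limma). Tyrobp and Fcer1g, the adaptors themselves, were chosen after their values were seen. Tyrobp had 16.7, 21.97 and 21.97 RPKM in DKO_TG, 27.3, 76.4 and 49.8 RPKM in DKO and 23.8, 18.1 and 23.9 RPKM in WT. Fcer1g had 8.58, 8.66 and 8.43 RPKM in DKO_TG, 15.7, 57.1 and 37.3 RPKM in DKO and 13.6, 11.4 and 14.99 RPKM in WT, and both rose in DKO (adjusted p = 0.0175 and 0.0195 in limma). For both, DKO replicate 1 lay much closer to WT than replicate 2 did.

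Of 4 phosphatase genes, 2 rose and 1 fell in DKO against WT (backgrounds 30.8% higher and 25.9% lower). Ptpn6 (SHP-1), the phosphatase of blood cells that inhibitory receptors recruit, had 2.24, 1.94 and 2.18 RPKM in DKO_TG, 4.54, 12.998 and 7.93 RPKM in DKO and 1.15, 1.87 and 1.47 RPKM in WT, a log2 change of 2.07 ± 0.31 (SE) in DKO against WT (adjusted p = 0.000631 in limma). The widely expressed Ptpn11 (SHP-2) fell, with 19.95, 20.2 and 19.99 RPKM in DKO_TG, 18.04, 17.97 and 17.8 RPKM in DKO and 23.7, 22.9 and 23.3 RPKM in WT, a call that was lost after rescaling to TPM, with the plain total of reads and after quantile normalization. Inppl1 (SHIP2), also widely expressed, rose by 0.77 ± 0.09 on the log2 scale (SE, adjusted p = 0.000165 in limma). Of 10 ligand genes tested, 2 rose and 1 fell in DKO against WT (backgrounds 30.8% and 25.9%). So few genes do not set the list apart from these backgrounds. After rescaling to TPM, 6 were called higher, where 10028 of 18889 genes were. After quantile normalization 5 were, where 4154 of 18889 genes were, and without DKO replicate 2 only 1. H2-K1, a class I MHC gene and so a ligand of the PIR receptors, had 131, 99.5 and 106 RPKM in DKO_TG, 192, 208 and 148 RPKM in DKO and 126, 102 and 107 RPKM in WT, and H2-D1 rose as well (adjusted p = 0.00705 and 0.0406 in limma). The DKO libraries of both genes were above all WT libraries.

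Markers of the cells that carry these receptors were counted beside them. Of 16 macrophage markers tested, 10 rose in DKO against WT and 10 fell in DKO_TG against DKO (backgrounds 30.8% higher and 1.73% lower). The 10 lower calls became 0 without any 1 DKO_TG library and 5 without DKO replicate 2 or 3. The markers' summed level was 212 to 270.3 RPKM in DKO_TG, 322 to 632 RPKM in DKO and 226 to 299.9 RPKM in WT. In DKO_TG against WT, 2 of them rose and 6 fell (backgrounds 29.1% and 22.3%), with a median log2 change of -0.19. Only 1 was lower after rescaling to TPM, where 994 of 18889 genes were, or with the plain total of reads, where 2238 were. The same count held without WT replicate 3 or DKO_TG replicate 2, where 3729 and 3286 genes were called lower. Itgam (CD11b), the integrin of monocytes, macrophages and neutrophils, had 0.355, 0.3598 and 0.328 RPKM in DKO_TG, 0.856, 2.45 and 1.77 RPKM in DKO and 0.143, 0.156 and 0.173 RPKM in WT. Adgre1 (F4/80) had 3.11, 2.903 and 2.802 RPKM in DKO_TG, 7.49, 12.6 and 6.71 RPKM in DKO and 2.72, 2.403 and 3.35 RPKM in WT, and Mertk, which clears dying cells, had 3.91, 3.24 and 3.28 RPKM in DKO_TG, 4.41, 3.15 and 5.97 RPKM in DKO and 1.65, 1.74 and 1.94 RPKM in WT. Both Itgam and Adgre1 were highest in the 3 DKO libraries, and Mertk was above WT in all 6 knockout libraries. None of these 3 was among the 6 macrophage markers that fell in DKO_TG against WT. Marco reached at most 0.0939 RPKM in any library. Of 5 dendritic cell markers tested, 3 rose in DKO against WT and 2 fell in DKO_TG against DKO (backgrounds 30.8% and 1.73%), and leaving out any 1 library left 0 or 1 lower. Batf3, a factor of conventional dendritic cells, had 0.308, 0.724 and 0.365 RPKM in DKO_TG, 1.101, 2.97 and 2.08 RPKM in DKO and 0.178, 0.406 and 0.311 RPKM in WT, while Flt3 and Xcr1 reached at most 0.171 and 0.259 RPKM in any library. Cd209a, a lectin gene of the same list that missed the filter, ran the other way, with 0.0388, 0.0457 and 0.0507 RPKM in DKO_TG, 0.03703, 0.0206 and 0.0193 RPKM in DKO and 0.359, 0.438 and 0.798 RPKM in WT. Of 5 neutrophil markers tested, 5 rose in DKO against WT and 1 fell in DKO_TG against DKO (backgrounds 30.8% higher and 1.73% lower). The 1 lower call became 0 without a filter, in a fit of the 6 libraries alone and without any 1 DKO_TG library. Without DKO replicate 1 it became 4, where 391 of 18889 genes were called lower. Csf3r, the receptor for the neutrophil growth factor G-CSF, had 0.738, 0.548 and 0.679 RPKM in DKO_TG, 1.54, 3.08 and 1.898 RPKM in DKO and 0.321, 0.173 and 0.315 RPKM in WT. Among the lymphocyte markers, the B-cell gene Cd79b rose in DKO against WT, and Cd3e, Cd3g and Ms4a1 reached at most 0.183, 0.361 and 0.178 RPKM in any library. Of 2 platelet markers tested, Itga2b rose in both knockout groups against WT (backgrounds 30.8% higher in DKO and 29.1% in DKO_TG). Pf4 fell in DKO_TG against WT (background 22.3% lower), a call lost after rescaling to TPM. Of 7 granulosa markers tested, Foxl2 alone fell in DKO against WT, and 2 fell in DKO_TG against WT (backgrounds 25.9% and 22.3% lower). All of these calls were lost under the 3 other scalings. Of 5 erythrocyte markers, none was called in DKO against WT and 3 fell in DKO_TG against WT (background 22.3% lower), which became 0 without any 1 DKO_TG library. The part of cell content in the receptor levels was not tested.

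**Figure D4:**
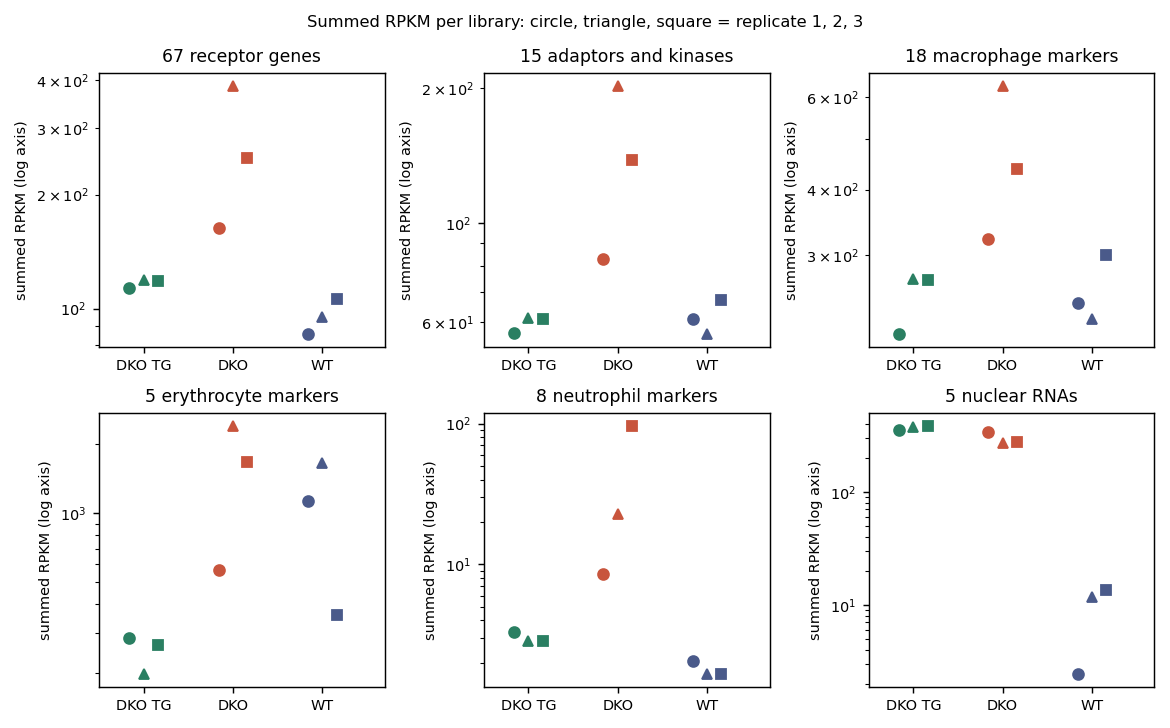
Summed RPKM, on a log axis in each panel, of the 67 receptors and of 5 lists of partner and marker genes in each library, with DKO_TG, DKO and WT along the axis and a circle, triangle and square for replicates 1, 2 and 3. The receptors, adaptors and macrophage markers share the order of the DKO libraries, with replicate 2 the highest, while the nuclear RNAs separate WT from both knockout groups.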

How the data were processed

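RNA sequencing of 9 mouse ovary libraries was deposited as 1 table of RPKM values for 54838 genes. Per the submitters' processing notes, cutadapt, HISAT2 2.1.0, HTSeq 0.5.4p5, DESeq2 1.2.8 and the build mm10 were used. The annotation, the use of strand in counting and the step that made the RPKM values were not given in the sources used here. Groups and replicate numbers came from the labels, and the transgene columns, spelled differently from the titles, were matched by prefix and number. GENCODE M21 gave positions and exon lengths for 54809 genes. RPKM times exon length gave whole reads, within 0.01 read or a relative difference of 1e-06, for 97.8% of the values above 0 and for all 67 receptors. The library size behind the deposited RPKM was 1.03 to 1.11 of the recovered total in DKO_TG and DKO and 0.793 to 0.920 in WT, so the values carry a rescaling between libraries.

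limma 3.58.1 in R 4.3.3 (lmFit, eBayes with a trend) was run on log2(RPKM + 0.5) over all 9 libraries, for 18889 genes with at least 0.5 RPKM in at least 3 libraries, with Benjamini-Hochberg adjustment over all of them and a threshold of 0.05. Fold changes on this scale understate low genes. The fits were tested on simulated data first. A lymphocyte marker is not reported here. Shared sequence was measured as the share of a gene's exon 50-mers found in another gene, and over 20% was called uncertain. The receptors, gene lists and tests were chosen with earlier results of these data known. Named genes are Nr1h3 and Nr1h2, the 3 highest tested members of each family, the 10 smallest adjusted p in each direction in DKO against WT, up to 10 receptors called in DKO_TG against DKO, the 3 members nearest to the filter on each side, and the 3 smallest adjusted p of each partner or marker list. Genes outside this rule, among them Clec4a2, Clec4a4, Clec7a, Clec12a, Cd300c2, Sirpb1c, Cd300ld2, Clec4f, Tyrobp, Fcer1g, Cd47, Xist, Kdm6a, Cd209a, S100a8, Ly6g, Mpo, the markers given only by their highest level and the receptors of the closing section, were named after their values were seen. Alternatives were other pseudocounts, filters and scalings, limma-voom, a block for the replicate number, a fit of 6 libraries, protein-coding genes only, leaving out each library and, added after seeing the data, leaving out receptors with shared sequence.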

Additional observations from a re-analysis of the deposited data

How the results depend on the processing

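The 31 receptors called higher in DKO against WT ranged from 23 to 39 over the alternatives. Over all genes, the 5821 higher calls ranged from 4154 after quantile normalization to 10028 after rescaling to TPM. The 4 receptors called lower became 1 after rescaling to TPM and 1 with the plain total of reads. Over all genes, the 4889 lower calls became 1065 and 2314. Under these scalings the median log2 change of all genes was 0.48 and 0.28, against 0.016 as deposited. Relative to that median, the receptors lay 0.96 and 1.03 higher under these scalings, against 1.14 as deposited. This distance was 0.53 without a filter, 0.84 and 1.63 with pseudocounts of 1 and 0.1, and 2.03 with limma-voom. Of the DKO_TG against DKO calls, the 16 lower ones became 5 without a filter, 6 with limma-voom and 0 in the fit of 6 libraries. In these settings the 327 lower calls over all genes became 162, 241 and 44. Without the receptors that share sequence, 10 were called lower. Leaving out 1 library gave 0 to 19 lower and 0 to 2 higher calls among the receptors, and 23 to 391 and 10 to 111 over all genes. The 2 higher ones among the receptors, Cd300lg and Siglech, appeared without DKO replicate 1. In DKO_TG against WT, the 14 higher calls became 4 after quantile normalization, where the 5491 over all genes became 3777. The 14 ranged from 8 to 17 when 1 library was left out, and those over all genes from 4586 to 5741. Of the receptors, 8 were called without WT replicate 1 or DKO_TG replicate 3, and 9 without WT replicate 2 or DKO_TG replicate 2. The 1 lower call became 0 after rescaling to TPM, 2 after quantile normalization, 2 in the fit of 6 libraries and 1 to 2 when 1 library was left out. The lower calls in DKO_TG against DKO were 8 without WT replicate 2, 8 without WT replicate 3 and 2 without DKO replicate 3. Over all genes they were 160, 197 and 121. The cause of these shifts was not tested.

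With the replicate number as a block, 7 receptors were called lower in DKO_TG against DKO, where 78 of 18889 genes were. In DKO against WT, 32 were called higher and 4 lower, where 5493 and 4372 genes were. In DKO_TG against WT, 13 were called higher and 1 lower, where 5167 and 3616 genes were. Deviations of same-numbered libraries correlated between -0.31 and 0.14, and those of differently numbered libraries between -0.26 and 0.32. These values gave no sign that the numbers pair the libraries, but with 3 libraries a group they cannot exclude it. Of 1848 values of named receptors under the alternatives, 1691 stayed on the same side of the threshold, where a receptor not called either way was given no direction, 126 were no longer called and 29 were newly called. Turned in direction were Clec16a in DKO against WT after rescaling to TPM (log2 change 0.043) and Clec2l in DKO_TG against WT after quantile normalization (-0.36). Of the adaptors and kinases, the 8 lower calls in DKO_TG against DKO became 1 with the block, and of the macrophage markers the 10 became 2 with the block and 1 in the fit of 6 libraries. At 40.1 to 59.4 M reads, receptors near 0 RPKM rest on few reads, though without a filter some of them were still called, such as Cd300c in DKO against WT (adjusted p = 0.0176 in limma).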

Other observations

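A further group of receptors, chosen after their values were seen, followed other orders of the libraries than the Clec4a, Sirpb1 and Pir genes. Clec10a (MGL1), a galactose-type lectin of macrophages and dendritic cells, had 4.26, 3.02 and 4.21 RPKM in DKO_TG, 8.499, 4.16 and 4.99 RPKM in DKO and 2.297, 2.44 and 3.199 RPKM in WT, and rose in DKO against WT (log2 change 0.97 ± 0.24 (SE), adjusted p = 0.0084 in limma). Here DKO replicate 1 was the highest library and replicate 2 the lowest of the DKO group. Clec9a (DNGR-1), the receptor of cross-presenting dendritic cells for dead cells, had 2.06, 1.75 and 1.59 RPKM in DKO_TG, 2.49, 1.503 and 1.74 RPKM in DKO and 0.915, 1.32 and 1.16 RPKM in WT, again with replicate 1 the highest. Cd300a, an inhibitory receptor for phospholipids of dying cells, had 0.943, 1.404 and 1.34 RPKM in DKO_TG, 1.68, 2.61 and 1.497 RPKM in DKO and 0.424, 0.613 and 0.852 RPKM in WT, and its 3 WT libraries were the lowest.

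The secreted members differed from each other in their order of libraries. Clec3b (tetranectin), a plasminogen-binding protein and not a cell receptor, had 0.517, 0.364 and 0.486 RPKM in DKO_TG, 0.768, 1.02 and 3.44 RPKM in DKO and 0.198, 0.428 and 0.417 RPKM in WT, with DKO replicate 3 the highest, the library that also led in neutrophil markers. Clec11a (osteolectin), a secreted growth factor of bone and marrow stroma, had 1.301, 1.37 and 1.02 RPKM in DKO_TG, 0.984, 0.651 and 0.775 RPKM in DKO and 0.946, 0.443 and 0.389 RPKM in WT, and was called in DKO_TG against WT (log2 change 0.69 ± 0.20 (SE), adjusted p = 0.0175 in limma). This call was lost after quantile normalization and without WT replicate 2, WT replicate 3, DKO_TG replicate 1 or DKO_TG replicate 2. Clec3a, a cartilage lectin below the filter, was listed at 0 in all DKO and WT libraries and had 1, 2 and 6 reads in the DKO_TG libraries. Clec1a, an endothelial lectin, was not called in the 3 comparisons, with 6.05, 5.397 and 4.83 RPKM in DKO_TG, 6.42, 4.89 and 5.702 RPKM in DKO and 3.97, 5.46 and 5.17 RPKM in WT, while the endothelial members Clec14a and Cd300lg were called lower in DKO. No test compared Clec1a with these, and after rescaling to TPM Clec1a was called higher in DKO and in DKO_TG against WT, while Clec14a was not called.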
